A study of Mus musculus with 8 samples.

Results

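The cytosolic ribosomal protein genes encode the protein subunits of the ribosome that translates nuclear-encoded messages. They were taken by name from the deposited gene tables: symbols beginning Rpl or Rps followed by a digit, and the stalk genes Rplp0, Rplp1 and Rplp2, without symbols carrying "-ps" and without the kinase genes that begin Rps6k. The rule found 87 of the 34745 genes listed, 53 named for the large subunit and 34 for the small subunit. GENCODE release M21 annotates 85 of them as protein coding and the other 2, Rpl37rt and Rps4l, as transcribed processed pseudogenes. The rule matched names and used no expression value, but the family was chosen with earlier results of these data known.

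The groups were DSS+CA and DSS, with 4 RNA sequencing libraries each, made from crypts of wild-type (WT) C57BL/6 mice on day 5. Both groups received dextran sulfate sodium (DSS), which damages the intestinal epithelium and causes colitis, so no group without DSS was compared. Injury of the sampled crypts was not measured here. CA is cholic acid, a primary bile acid, per the series title, and the comparison addressed its effect on crypts in DSS colitis. Age, sex, gut segment, route, dose and whether replicates came from separate animals are not given in the labels, so the spread behind the p-values may be technical.

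A ribosome holds a large subunit, which joins amino acids, and a small subunit, which reads the message. Cells make the ribosomal proteins in matched amounts, largely by controlling translation: their messages begin with a C followed by a run of pyrimidines, and signalling through mTOR complex 1 and the RNA-binding protein Larp1 sets how well such messages are translated. Rapidly dividing crypt cells need many ribosomes. An RNA library measures the messages and not their translation.

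Total counts lay between 13334012 and 17973196 per library. Markers fitted epithelium: the summed level of Epcam, Krt8, Krt18, Krt19, Cdh1 and Vil1 was 6901 to 9141 CPM (counts scaled to library size) in DSS+CA and 7037 to 8752 CPM in DSS. Markers of absorptive enterocytes, which line villi, were also abundant, at a summed 25141 to 111441 CPM in DSS+CA and 20808 to 98459 CPM in DSS, so the libraries were not of crypt base cells alone. The 5 crypt base stem cell markers summed to 283 to 684 CPM in DSS+CA and 421 to 1612 CPM in DSS. The 8 markers of T and NK cells were lower in DSS+CA, at a summed 61.4 to 237 CPM, than in DSS, at 286 to 678 CPM, and 1 of the 8, the integrin gene Itgae, fell past the threshold; none of the 8 was at 0 in all libraries. Their part in the ribosomal protein values was not tested. The libraries also differed in the mean length of a counted gene, a harmonic mean weighted by counts with the ribosomal protein genes left out. Mitochondrially encoded genes and cell-type markers were kept in, so the length also depends on how much of the counts they took. This length was 2442, 2025, 1446 and 2039 bases in DSS+CA 1 to 4 and 2248, 1424, 1451 and 1728 bases in DSS 1 to 4. DSS+CA 3, DSS 2 and DSS 3 thus had the shortest counted genes, with DSS 4 between these 3 libraries and the rest. Results are given below with and without the 3.

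Ribosomal protein genes have many processed copies in the genome, and reads from near-identical sequences can be listed under either. A pair of members shows how small the difference can be. Transcripts of Rpl9, a large subunit protein gene on chromosome 5, and of Rpl9-ps6 on chromosome 19 aligned over 692 bases at 99.86% identity, with 1 differing base. Transcripts of Rpl23a, a large subunit gene on chromosome 11, and of Rpl23a-ps3 on chromosome 14 aligned over 468 bases at 99.79% identity, also with 1 differing base. The 61-base coding stretches around these positions, from GENCODE M21 transcripts, follow with the differing base in capitals.
Rpl9: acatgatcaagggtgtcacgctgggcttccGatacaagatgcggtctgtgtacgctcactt
Rpl9-ps6: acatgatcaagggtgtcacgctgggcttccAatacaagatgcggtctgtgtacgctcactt
Rpl23a: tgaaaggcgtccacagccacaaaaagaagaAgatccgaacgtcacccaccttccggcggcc
Rpl23a-ps3: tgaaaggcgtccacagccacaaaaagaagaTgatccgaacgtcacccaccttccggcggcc

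Start sites were read from RefSeq on GRCm38.p6, which held a window for 66 of the 87 members. A C at the listed start followed by at least 4 bases of C or T was found in 14 of the 66 (21.21%) and in 813 of all 27025 genes with a window (3.01%), on the strand of the gene. The 14 were Rpl14, Rpl15, Rpl28, Rpl35, Rpl35a, Rpl38, Rplp2, Rps10, Rps15a, Rps18, Rps21, Rps27, Rps27rt and Rps6. A tract that begins a few bases away from the listed start is missed by this search. Windows of 30 bases, 10 before the start and 20 from it, are shown for 7 of these genes, among them the retrogene Rps27rt and its parent Rps27. Capitals mark the start and the run of pyrimidines from it.
Rpl35 (chr2:39005112-39005141, minus strand): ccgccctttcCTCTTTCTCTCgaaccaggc
Rps15a (chr7:118116128-118116157, minus strand): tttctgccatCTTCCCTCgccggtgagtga
Rps18 (chr17:33955646-33955675, minus strand): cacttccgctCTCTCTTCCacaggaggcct
Rplp2 (chr7:141447641-141447670, plus strand): cagcgtcttcCTTTCgccgccggacgccgc
Rpl38 (chr11:114668570-114668599, plus strand): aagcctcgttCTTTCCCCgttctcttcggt
Rps27 (chr3:90213629-90213658, minus strand): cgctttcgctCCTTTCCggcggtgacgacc
Rps27rt (chr9:114982720-114982749, minus strand): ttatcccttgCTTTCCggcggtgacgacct

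As a family, the ribosomal protein genes took a similar share of the counts in both groups. The share was 1.76%, 2.15%, 3.46% and 2.32% in DSS+CA 1 to 4 and 1.08%, 2.36%, 3.69% and 2.05% in DSS 1 to 4. The means were 2.42 ± 0.730% in DSS+CA and 2.30 ± 1.07% in DSS (SD, n = 4 each), so the groups overlapped and their means differed by less than either SD. DSS 1 was lowest and DSS 3 and DSS+CA 3 were highest. Large subunit genes took 0.998% to 2.03% of the counts in DSS+CA and 0.607% to 2.07% in DSS, and small subunit genes 0.763% to 1.43% in DSS+CA and 0.477% to 1.62% in DSS. Since the total holds other abundant transcripts, the share was also taken outside the mitochondrially encoded genes, which took 9.72% to 20.5% of the counts in DSS+CA and 16.2% to 27.7% in DSS. It then averaged 2.87 ± 1.03% in DSS+CA and 2.90 ± 1.33% in DSS. Some reads were listed under copies, as given below. With the 21 pseudogene rows that the name rule leaves out added, the share of all counts averaged 2.58 ± 0.811% in DSS+CA and 2.44 ± 1.15% in DSS. On the deposited FPKM, which divide counts by gene length, the share of the summed FPKM was 2.96%, 3.04%, 3.55% and 3.26% in DSS+CA 1 to 4 and 1.68%, 2.39%, 3.87% and 2.52% in DSS 1 to 4. On that scale the 4 DSS+CA libraries were above 3 of the 4 DSS libraries and below DSS 3, with means of 3.20 ± 0.265% in DSS+CA and 2.61 ± 0.916% in DSS (SD, n = 4 each). In libraries of many cells, fewer cells of a type and less of the RNA per cell cannot be told apart.

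**Figure D1:**
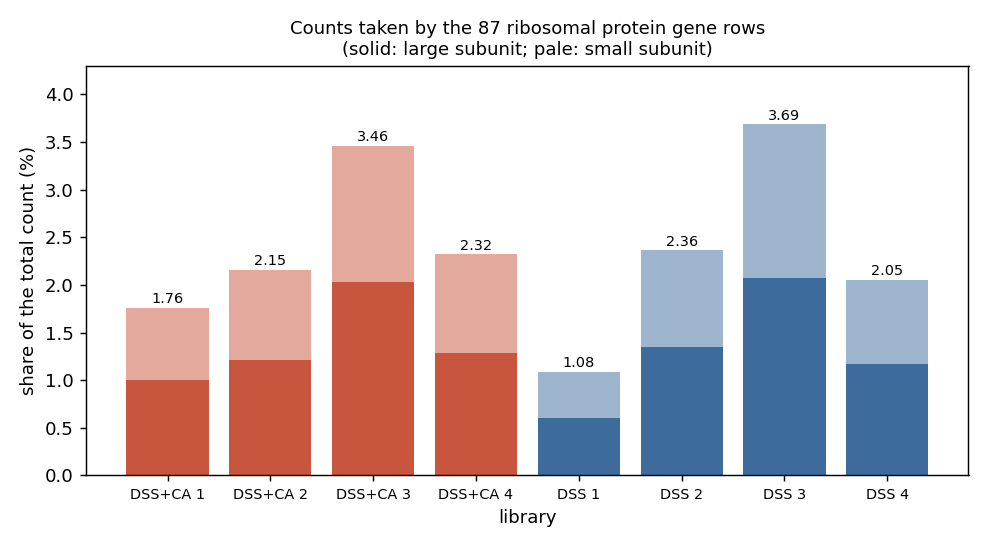
Percent of each library's total count taken by the 87 ribosomal protein genes, as stacked bars with the large subunit solid and the small subunit pale, for DSS+CA 1 to 4 (red) and DSS 1 to 4 (blue). DSS+CA spans 1.76% to 3.46% and DSS 1.08% to 3.69%, so the groups overlap.

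No ribosomal protein gene rose or fell past the threshold. Of the 87, 80 passed the filter on low values, and 0 of these had an adjusted p under 0.05 in edgeR's quasi-likelihood test with Benjamini-Hochberg adjustment over 9913 genes; over all tested genes 0.131% passed. DESeq2 also called 0 members, where it called 2.22% of all genes with an adjusted p. At an unadjusted p under 0.05, 1 member passed (Rpl27), against 7.82% of all tested genes. Of the 80 members, 40 had a log2 fold change above 0 and 40 below, with a median of -0.0010, beside 0.02 over all tested genes. The median was 0.08 for 48 large subunit genes and -0.04 for 32 small subunit genes. The standard errors (SE) of the members' log2 fold changes had a median of 0.480 and ran from 0.265 to 0.827, wider than the median of 0.368 over all tested genes. The median depended on single libraries: leaving out each of the 8 in turn gave -0.42 (without DSS+CA 3) to 0.33 (without DSS 3). The groups did not overlap in 1 member, Rpl7a, which was higher in DSS+CA, and in 0 members were they apart in the lower direction; over all tested genes these shares were 3.24% higher and 2.81% lower.

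The stalk proteins, which recruit translation factors to the large subunit, did not move together across libraries. Rplp0, the stalk base (chromosome 5, 115559467 to 115563727), was at 933, 860, 479 and 1120 CPM in DSS+CA 1 to 4 and 542, 462, 961 and 619 CPM in DSS 1 to 4. Its log2 fold change was 0.39 (SE 0.368, adjusted p = 0.937, edgeR), and only DSS+CA 4 lay above the range of DSS. Rplp1, which pairs with Rplp2 on the stalk, was at 450, 628, 1143 and 665 CPM in DSS+CA 1 to 4 and 258, 1042, 1509 and 687 CPM in DSS 1 to 4. It was high in the 3 libraries of short counted genes, where Rplp0 was low in 2 of the 3. Rplp2 was at 137, 145, 94.8 and 176 CPM in DSS+CA 1 to 4 and 82.6, 115, 230 and 133 CPM in DSS 1 to 4, with DSS 3 highest. The log2 fold changes of Rplp1 (-0.28, SE 0.502) and Rplp2 (-0.02, SE 0.356) had adjusted p-values of 0.996 and 0.999 in edgeR.

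Among large subunit genes, Rpl27 had the largest difference. Rpl27 (ENSMUSG00000063316, chromosome 11, 101442298 to 101445529) was at 15.9, 14.9, 10.3 and 16.6 CPM in DSS+CA 1 to 4 and 6.28, 5.03, 11.0 and 4.12 CPM in DSS 1 to 4. DSS+CA 3 lay just below DSS 3, and the other libraries were apart. The log2 fold change was 1.13 (SE 0.361, adjusted p = 0.323, edgeR), and most reads of this sequence were listed under a copy, as given below. Rpl7a, whose groups did not overlap, was at 168, 175, 164 and 219 CPM in DSS+CA 1 to 4 and 112, 164, 161 and 123 CPM in DSS 1 to 4. The lowest DSS+CA and the highest DSS library rounded to the same value, and the log2 fold change was 0.38 (SE 0.270, adjusted p = 0.887, edgeR). Rpl37a was at 5.55, 8.67, 6.75 and 8.29 CPM in DSS+CA 1 to 4 and 3.78, 4.35, 7.91 and 4.34 CPM in DSS 1 to 4, with a log2 fold change of 0.52 (SE 0.342). Rpl26 had the lowest log2 fold change of the large subunit, -0.40 (SE 0.726), with 178, 287, 1379 and 282 CPM in DSS+CA 1 to 4 and 153, 1078, 1146 and 437 CPM in DSS 1 to 4. These values show the high libraries crossing the groups: DSS+CA 3 was far above DSS+CA 1, 2 and 4, and DSS 2 and DSS 3 were far above DSS 1.

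Rpl13a, a large subunit protein also known to leave the ribosome and silence inflammatory messages, had the highest mean FPKM of the family. It averaged 1735 ± 1484 FPKM in DSS+CA and 1907 ± 1463 FPKM in DSS (SD, n = 4 each). On the CPM scale it was at 551, 1139, 5488 and 923 in DSS+CA 1 to 4 and 297, 2466, 4824 and 1672 in DSS 1 to 4. The highest library was 18.5 times the lowest, the widest range of any tested member, and the log2 fold change was -0.19 (SE 0.827, adjusted p = 0.999, edgeR). Rpl4 averaged 979 ± 250.2 FPKM in DSS+CA and 924 ± 358 FPKM in DSS, with a log2 fold change in counts of -0.11 (SE 0.512). FPKM depends on the length the authors used, which was a median of 2.39 times that of the principal GENCODE transcript over 86 members and up to 14.8 times for Rpl9. Over the principal transcript length, Rpl13a, Rps15, Rplp1 and Rpl41 had the most counts per kilobase.

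The small subunit genes with the lowest log2 fold changes were Rps12, Rps19, Rps18, Rps15 and Rps15a, and none passed the threshold. Rps12 (chromosome 10, 23785211 to 23787195) was at 43.6, 48.3, 82.9 and 51.2 CPM in DSS+CA 1 to 4 and 36.9, 157, 110 and 77.0 CPM in DSS 1 to 4. DSS 2 and DSS 3 exceeded all DSS+CA libraries and DSS 1 was below all of them; the log2 fold change was -0.75 (SE 0.419, adjusted p = 0.758, edgeR). Rps19, the gene most often mutated in human Diamond-Blackfan anaemia, was at 98.2, 140, 405 and 150 CPM in DSS+CA 1 to 4 and 69.3, 356, 525 and 204 CPM in DSS 1 to 4. Its log2 fold change was -0.54 (SE 0.595), and those of Rps18, Rps15 and Rps15a were -0.51 (SE 0.589), -0.46 (SE 0.570) and -0.43 (SE 0.486). Each of these genes had the groups overlapping, with DSS 1 lowest and DSS 3 highest of the 8 for Rps19, Rps18, Rps15 and Rps15a.

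Rps6, the subunit phosphorylated downstream of mTOR complex 1, was at 5.23, 5.44, 5.93 and 3.82 CPM in DSS+CA 1 to 4 and 3.29, 2.59, 4.34 and 3.44 CPM in DSS 1 to 4. DSS+CA 4 fell within the range of DSS and the other 3 DSS+CA libraries were above all DSS libraries. The log2 fold change was 0.58 (SE 0.326, adjusted p = 0.764, edgeR). Rps29 was at 1.48, 1.33, 3.58 and 2.02 CPM in DSS+CA 1 to 4 and 0.427, 1.14, 1.98 and 1.13 CPM in DSS 1 to 4, with a log2 fold change of 0.83 (SE 0.519). Both rested on few reads, 519 counts for Rps6 and 189 for Rps29 over all 8 libraries.

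Although the subunits are needed in matched amounts, their listed counts did not vary alike across libraries. For each tested member, the mean CPM of DSS+CA 3, DSS 2 and DSS 3 was divided by that of the other 5 libraries. The median ratio was 2.24 over 80 members and 0.988 over all tested genes. Some other sets were also above 1, with medians of 3.17 for Paneth cell markers, 2.43 for absorptive enterocyte markers, 2.07 for nuclear-encoded respiratory chain genes and 1.73 for mitochondrial ribosomal protein genes. The ratio ran from 0.761 for Rpl27 to 4.91 for Rpl39, exceeded 2 in 46 members, beside 14.5% of all tested genes, and exceeded 3 in 24. It was below 1.2 in 13 members: Rpl27, Rplp0, Rpl28, Rps28, Rps4x, Rpl14, Rps6, Rpl7a, Rpl37a, Rpl3, Rpl8, Rplp2 and Rpl10. The principal transcript had a median length of 699 bases in the 24 members above 3, with a range of 374 to 2051, and 964 bases in the 13 below 1.2, with a range of 437 to 1358. Large and small subunit members did not stand apart, with median ratios of 2.21 and 2.28. Members with and without an oligopyrimidine tract found at the listed start had median ratios of 2.13 (13 tested) and 2.24 (46 tested). Their median log2 fold changes were 0.09 and -0.02, and the second set may hold tracts that begin a few bases away.

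The ratio of Rpl13a to Rplp0 counts shows how far subunits diverged within a library. It was 0.590, 1.32, 11.4 and 0.824 in DSS+CA 1 to 4 and 0.548, 5.34, 5.02 and 2.70 in DSS 1 to 4. Rplp0 was thus counted more often than Rpl13a in DSS+CA 1, DSS+CA 4 and DSS 1, and less often in the other 5 libraries. Over the 8 libraries the highest CPM was a median of 4.84 times the lowest. It was 1.58 times for Rps4x, the X-linked small subunit gene, with 449, 383, 346 and 521 CPM in DSS+CA 1 to 4 and 329, 504, 361 and 355 CPM in DSS 1 to 4.

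**Figure D2:**
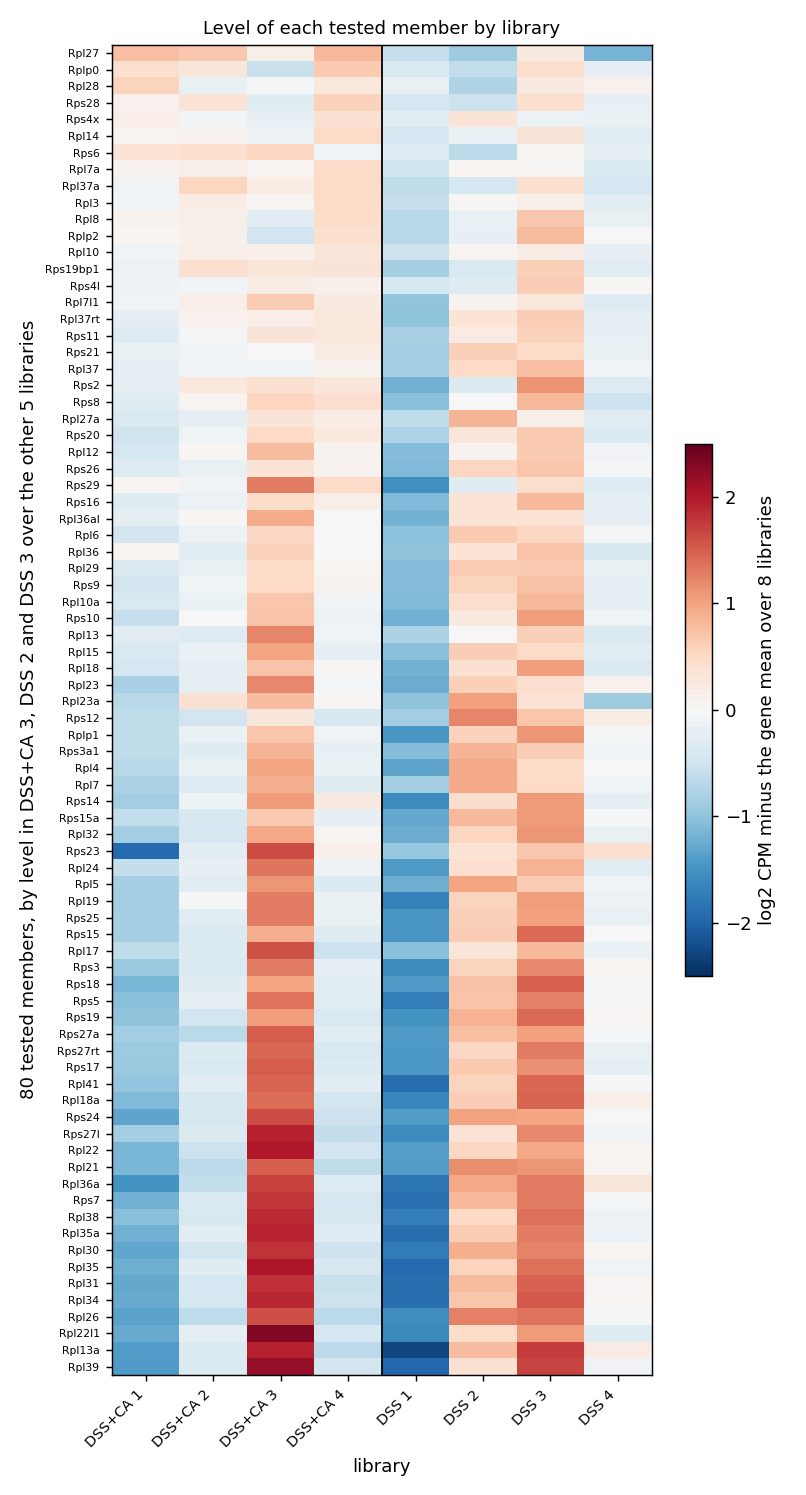
Log2 CPM of each of the 80 tested members minus its mean over the 8 libraries, with DSS+CA 1 to 4 left of the black line and DSS 1 to 4 right of it. Genes run from the lowest ratio of the 3 libraries of short counted genes over the other 5 (Rpl27, 0.761) to the highest (Rpl39, 4.91), and in the lower rows DSS+CA 3, DSS 2 and DSS 3 are red in both groups.

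The family share tended to be higher where the counted genes were shorter, but not in step. DSS 2, with the shortest at 1424 bases, had 2.36%, close to the 2.32% of DSS+CA 4 at 2039 bases. Outside the mitochondrially encoded genes these 2 libraries were further apart, at 3.27% in DSS 2 and 2.67% in DSS+CA 4. On that scale DSS+CA 3, DSS 2 and DSS 3 had 3.27% to 4.48%, and the other 5 libraries 1.29% to 2.67%. The shares that follow are of all counts. The share was 2.36% to 3.69% in the 3 libraries with 1424 to 1451 bases and 1.08% to 2.32% in the 5 with 1728 to 2442 bases. Among the longer ones, DSS+CA 2 and DSS+CA 4 had shares of 2.15% and 2.32% at 2025 and 2039 bases, DSS+CA 1 had 1.76% at 2442 bases, and DSS 1 had 1.08% at 2248 bases. The closest pair across groups ran the other way, with 3.46% in DSS+CA 3 at 1446 bases and 3.69% in DSS 3 at 1451 bases. A second fit had this length, taken from the same counts, as a term beside the group. The term also carries mitochondrial and cell-type content, so the fit does not isolate a technical property of the libraries. The log2 fold change was above 0 in 79 of 80 members, with Rps12 at -0.18 the other, and the median was 0.53, beside 0.02 over all tested genes. In that fit 6 members rose past the threshold, 7.5% of the 80, and 0 fell. Over all tested genes 3.04% rose and 3.38% fell. Of the 6, 3 were among 7 tested paralogs and other genes caught by the name pattern, so the 7.5% is not of core subunits alone. At an unadjusted p under 0.05, 37 members were higher, against 12.7% of all tested genes. Cell-type markers moved in the same fit: 8 of 8 T and NK cell markers fell past the threshold (median -1.81), as did 2 of 3 tested B and plasma cell markers and 1 of 6 Paneth cell markers, while the 6 absorptive enterocyte markers had a median of 0.37 with 0 past the threshold. Their part in the members' values was not tested.

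**Figure D3:**
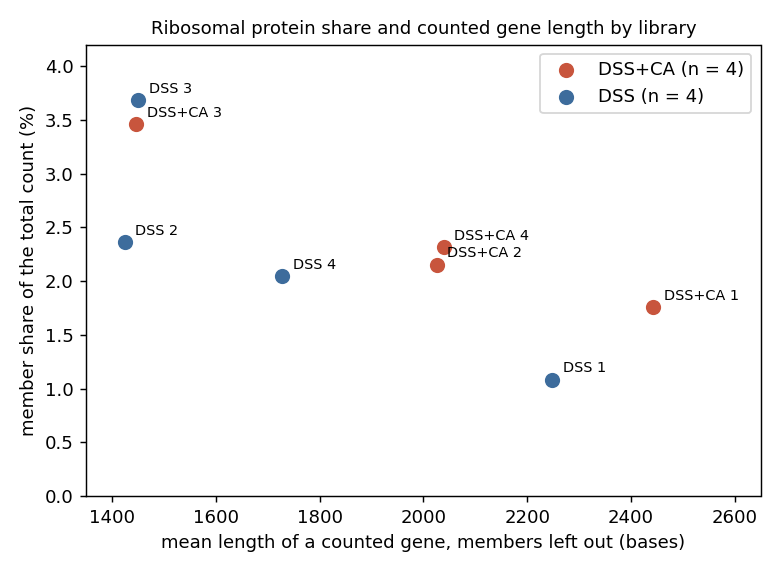
Share of the total count taken by the 87 genes (vertical, %) against the mean length of a counted gene without them (horizontal, bases), 1 point per library, DSS+CA red and DSS blue. The 3 libraries at 1424 to 1451 bases hold shares of 2.36% to 3.69%, and the other 5 hold 1.08% to 2.32%.

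The 6 that passed in this fit were the 3 paralogs Rpl22l1, Rpl36al and Rpl7l1, and the subunit genes Rpl35a, Rpl24 and Rpl35. Rpl22l1, a paralog of Rpl22, was at 24.7, 50.7, 296 and 43.4 CPM in DSS+CA 1 to 4 and 19.2, 81.6, 124 and 48.0 CPM in DSS 1 to 4, and rose by 1.12 (log2, SE 0.238, adjusted p = 0.0318, edgeR). Rpl35 was at 134, 256, 1268 and 237 CPM in DSS+CA 1 to 4 and 81.8, 458, 816 and 296 CPM in DSS 1 to 4, and rose by 0.98 (SE 0.235, adjusted p = 0.0415, edgeR). In both genes DSS+CA 3 exceeded all other libraries. Rpl7l1, a paralog of Rpl7 with a role in making ribosomes, rose by 0.76 (SE 0.193, adjusted p = 0.0474, edgeR), with 80.6, 95.9, 133 and 99.2 CPM in DSS+CA 1 to 4 and 43.2, 91.1, 103 and 67.9 CPM in DSS 1 to 4. These calls depended on single libraries. Leaving out any 1 of DSS+CA 1, DSS+CA 2, DSS+CA 3, DSS+CA 4, DSS 1 and DSS 4 left 0 members past the threshold, leaving out DSS 2 gave 5, against 2.9% of all tested genes, and leaving out DSS 3 gave 48, against 15.4% of all tested genes. The median of the members stayed above 0 in these 8 fits, from 0.36 to 0.71. With only the other 5 libraries, 3 DSS+CA and 2 DSS, and no length term, 1 member rose (Rpl27), against 2.36% of all tested genes, and the median was 0.28.

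**Figure D4:**
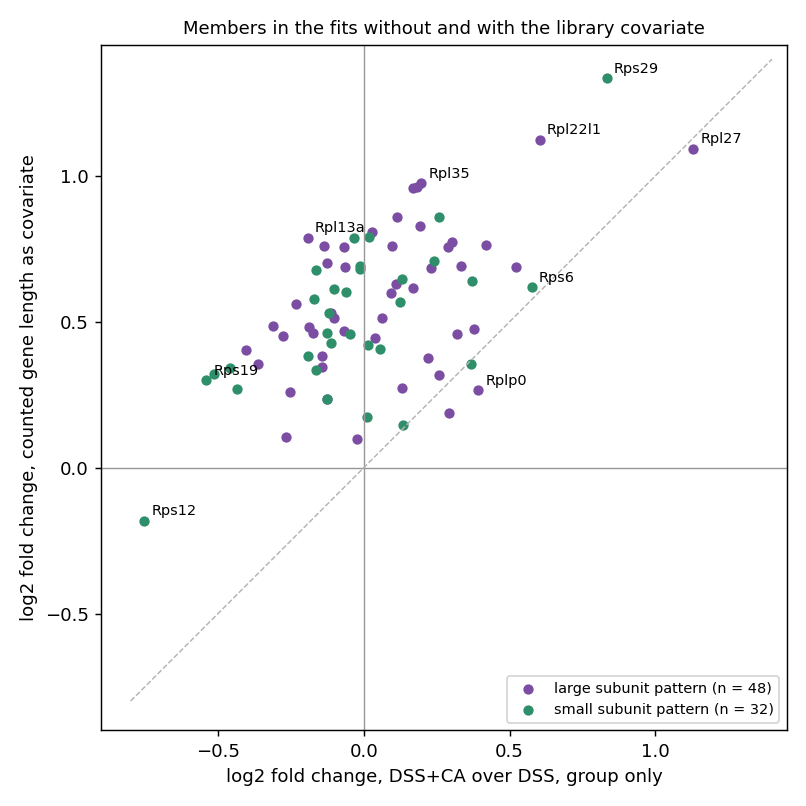
Log2 fold change of DSS+CA over DSS for the 80 tested members, with the group as the only term (horizontal) and with counted gene length added (vertical), large subunit names purple and small subunit names green, with a dashed line of equality. The median is -0.0010 on the horizontal axis and 0.53 on the vertical, where 79 of 80 points lie above 0.

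The genes with few counts included subunits that every ribosome holds, and for Rps27, Rpl9 and Rpl23a a near-identical copy had most of the pair's counts. Of the 87, 7 did not pass the filter: Rpl9, Rpl11, Rps13, Rps27, Rpl3l, Rpl10l and Rpl39l. Rps27 (chromosome 3, 90212522 to 90213651) had 170 counts over the 8 libraries, while its retrogene Rps27rt (chromosome 9, 114982371 to 114982740), identical over 341 aligned bases, had 56074. Rps27rt held 99.4% to 99.8% of the counts of the pair in DSS+CA and 99.3% to 99.8% in DSS. Rpl9 had 570 counts against 35181 for Rpl9-ps6, and Rpl23a 173 against 66483 for Rpl23a-ps3, the copies shown above with 1 differing base. Across the family, a median of 49.3% of the 50-base words of a member's transcript also occurred in transcripts of other genes, and the figure was over 50% for 42 of the 87. It was 81.1% for the 11 members with 10 to 1000 counts and 44.7% for the 73 with more. Among the members that rose in the fit with the length term, it was 95.1% for Rpl35, 81.7% for Rpl24 and 65.6% for Rpl22l1. For Rpl35a, Rpl36al and Rpl7l1 it was 51.3%, 24.9% and 9.19%. Values of members with many shared words are uncertain, since reads that fit a member and a copy may be listed under either.

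The group difference of Rpl27 was smaller once its copy was counted with it. Its copy Rpl27-ps3, identical over 411 aligned bases, held 91.6%, 92.3%, 93.9% and 92.8% of the pair in DSS+CA 1 to 4 and 93.5%, 96.6%, 95.5% and 97.0% in DSS 1 to 4. The sum of both was at 189.5, 194.5, 168 and 229 CPM in DSS+CA 1 to 4 and 96.1, 147, 246 and 139 CPM in DSS 1 to 4, with DSS 3 highest. With the copy's counts added, the log2 fold change of Rpl27 was 0.32 (SE 0.325, adjusted p = 0.953, edgeR). For Rps12, whose copy Rps12-ps3 is identical over 494 bases and held 31.2% to 37.9% of the pair in DSS+CA and 24.0% to 33.2% in DSS, the sum differed by -0.64 on the log2 scale (SE 0.428, adjusted p = 0.869, edgeR). Of Rpl37 and the pseudogene Rpl37rt, 99.71% identical, Rpl37rt held 64.4% to 68.0% in DSS+CA and 61.8% to 62.2% in DSS. All 4 DSS+CA values were above all DSS values for this split and for that of Rps26-ps1, given below. The groups overlapped for Rps12-ps3, Rpl27-ps3, Rpl39-ps, Rps27rt, Rpl9-ps6 and Rpl23a-ps3, and no split was tested. Rpl39-ps held 63.0% to 68.4% of its pair with Rpl39 in DSS+CA and 63.3% to 66.5% in DSS. Rps26-ps1 held 42.6% to 45.1% of its pair with Rps26 in DSS+CA and 36.7% to 42.4% in DSS.

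**Figure D5:**
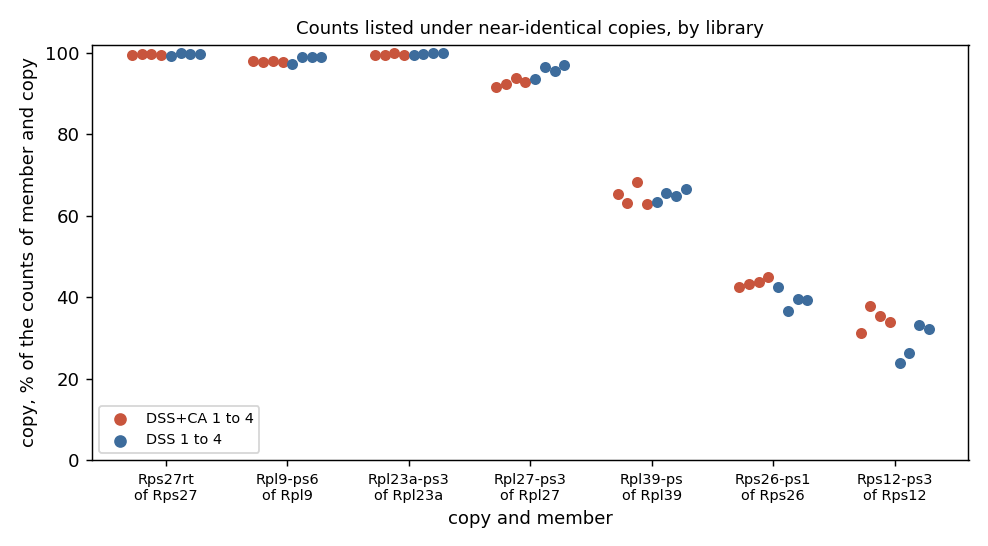
Counts of a near-identical copy as a percent of the counts of member and copy together, 1 point per library, DSS+CA 1 to 4 (red) left of DSS 1 to 4 (blue) for each pair. Rps27rt, Rpl9-ps6 and Rpl23a-ps3 hold over 97% in every library, and Rpl27-ps3 holds 91.6% to 93.9% in DSS+CA and 93.5% to 97.0% in DSS.

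The name pattern also caught paralogs with restricted or other roles, of which 3 had hardly any counts. The muscle paralog Rpl3l had 1 count in all, the testis paralog Rpl10l had 0 and Rpl39l had 4; a count of 0 leaves room for up to 3. Rps27l, a paralog of Rps27 induced by p53, was at 111, 156, 764 and 132 CPM in DSS+CA 1 to 4 and 67.8, 254, 459 and 192 CPM in DSS 1 to 4. Its log2 fold change was 0.26 (SE 0.689, adjusted p = 0.999, edgeR), and DSS+CA 3 stood far above the other DSS+CA libraries. Rpl36al was at 58.4, 70.4, 132 and 68.8 CPM in DSS+CA 1 to 4 and 30.4, 88.0, 88.8 and 59.8 CPM in DSS 1 to 4, with a log2 fold change of 0.30 (SE 0.394). Rps4l and Rpl37rt had log2 fold changes of 0.01 (SE 0.297) and 0.04 (SE 0.357). Rps19bp1 encodes a protein that binds Rps19 and is no ribosomal subunit. It averaged 14.0 ± 2.24 CPM in DSS+CA and 10.8 ± 4.94 CPM in DSS (SD, n = 4 each). With these genes and also Rpl22l1, Rpl7l1 and Rps27rt left out, the family share averaged 2.30 ± 0.682% in DSS+CA and 2.19 ± 1.02% in DSS.

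Of the subunits whose names fall outside the pattern, 3 were examined. Rpsa, a small subunit protein and laminin receptor, was at 855, 1074, 987 and 1283 CPM in DSS+CA 1 to 4 and 467, 825, 1595 and 750 CPM in DSS 1 to 4, with a log2 fold change of 0.21 (SE 0.395). Rack1, the small subunit scaffold listed under its older name Gnb2l1, was at 644, 911, 1901 and 972 CPM in DSS+CA 1 to 4 and 472, 1286, 2265 and 860 CPM in DSS 1 to 4, with a log2 fold change of -0.14 (SE 0.503). Fau, which encodes a subunit fused to a ubiquitin-like protein, was at 190, 310, 722 and 303 CPM in DSS+CA 1 to 4 and 143, 453, 732 and 348 CPM in DSS 1 to 4, with a log2 fold change of -0.14 (SE 0.521). None of the 3 passed the threshold, and each had its highest value in DSS 3.

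Other genes of translation gave 0 calls with the group as the only term. Of 22 translation factors and companions whose messages are known for oligopyrimidine starts, 0 passed, with a median log2 fold change of 0.00; Cct2, a chaperonin subunit, had the smallest p, with 215 ± 21.9 CPM in DSS+CA and 133 ± 6.69 CPM in DSS (SD, n = 4 each; log2 fold change 0.69, SE 0.250, adjusted p = 0.434, edgeR). Of 20 genes of the mTOR pathway and its translational regulators, 0 passed. Eif4ebp1, the repressor of cap-dependent translation that mTOR complex 1 phosphorylates, was at 20.7, 33.9, 51.5 and 45.8 CPM in DSS+CA 1 to 4 and 6.10, 8.85, 29.4 and 10.7 CPM in DSS 1 to 4. DSS+CA 1 lay below DSS 3 and the other libraries were apart; the log2 fold change was 1.47 (SE 0.493, adjusted p = 0.365, edgeR). With counted gene length in the fit, Eif4ebp1 rose by 1.98 (SE 0.408, adjusted p = 0.0305, edgeR), the only one of the 20 that passed; of the 22 translation factors the initiation factor subunit Eif3e rose by 0.73 (SE 0.183, adjusted p = 0.0459, edgeR). These single calls stand beside 3.04% of all tested genes that rose in this fit.

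Higher values with the length term were not confined to the cytosolic ribosome. For 77 tested mitochondrial ribosomal protein genes the median log2 fold change was 0.58 with the term and 0.28 without it, and 14 rose past the threshold with it, where 3.04% of all tested genes rose. For 79 nuclear-encoded respiratory chain genes the medians were 0.43 with the term and 0.07 without it, and 7 rose. Whether the cytosolic ribosomal protein genes differed from these families was not tested.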

How the data were processed

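Per the file headers, the deposited table of each library gives an unnormalized count and an FPKM for 34745 genes. The deposited FPKM follow from the count, the library total and 1 length per gene, which agreed within 1% between libraries for 17718 of 17718 genes counted in 2 or more. HISAT2, StringTie, GRCm38 and mm10 are named without versions in the submitters' processing notes, and the libraries were stranded total RNA, per the labels' protocols. How reads with several matches were counted, by which tool and strand setting, is not given in the sources used here.

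Genes with a deposited FPKM of at least 1 in at least 4 of 8 libraries (9913) were tested with edgeR 4.0.16 (limma 3.58.1, R 4.3.3): TMM scaling, quasi-likelihood test of the group, two-sided, Benjamini-Hochberg adjustment over all 9913, threshold 0.05. The common biological coefficient of variation was 0.416. The SE is the absolute log2 fold change over the square root of F. CPM are TMM-scaled, over the total of the tested genes. Fold changes are DSS+CA over DSS. Alternatives were other scalings and filters, DESeq2 1.42.0, limma on log2(FPKM + 1), libraries left out, and counted gene length as a covariate. The procedure was tested on data simulated with the common dispersion for every gene and no library difference beyond scaled size. That simulation cannot tell how well changes are found in these libraries, which differed in counted gene length. Copies were aligned with Biopython 1.88; tables were handled with pandas 2.3.3 and numpy 2.4.6 (Python 3.11.15) and figures drawn with matplotlib 3.10.9.

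The members, lists and tests were chosen with earlier results of these data known. Named were the members past the threshold, the 6 of smallest p, the 6 of highest and 6 of lowest fold change, the 5 of highest mean FPKM, the stalk genes, paralogs, members without overlap, 3 core subunits outside the name pattern, and the leading genes of each list. A gene that this rule also named is not reported here. Rpl9, Rpl23a, Rps27, Rpl39, Rps4x, Rps26 and Rpl37 were named after their values were seen, as were the 6 members and Eif3e past the threshold with the covariate and the start windows shown. List members were matched by symbol (109) or gene ID (1). Markers of B and plasma cells summed to 6.66 to 21.8 CPM in DSS+CA and 28.6 to 66.0 CPM in DSS, of myeloid cells to 17.3 to 48.1 CPM in DSS+CA and 35.2 to 156 CPM in DSS, and of stroma and vessels to 4.54 to 7.40 CPM in DSS+CA and 7.89 to 14.1 CPM in DSS. Paneth cell markers summed to 4347 to 17192 CPM in DSS+CA and 5708 to 37275 CPM in DSS, and proliferation markers to 389 to 524 CPM in DSS+CA and 353 to 675 CPM in DSS.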

Additional observations from a re-analysis of the deposited data

Results flagged for a closer look

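In 8 of 56 sets of 4 values 1 library lay far from the other 3. The cut-off is set to flag about 1 in 20 groups of normally distributed values. Whether these CPM are so distributed was not tested, and the sets share libraries. Many of the genes were also named for extreme values, so the 8 cannot be set against that rate. Of the 8, 7 were DSS+CA 3, the DSS+CA library with the shortest counted genes: Rpl13a at 5488 CPM, Rpl22l1 at 296 CPM, Rpl26 at 1379 CPM, Rpl36al at 132.0 CPM, Rps19 at 405 CPM, Rps27l at 764 CPM and Rps27rt at 1115 CPM, each the highest of its group. The other was DSS 3, with Rpl37a at 7.91 CPM, the highest of the DSS group.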

How the results depend on the processing

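With the group as the only term, 0 members were past the threshold under every scaling, filter, test and single library left out; the exceptions among the alternatives were the length covariate (6 higher) and the 5 libraries without the 3 of shortest counted genes (1 higher). With that covariate the counts higher were 14 mitochondrial ribosomal protein, 7 respiratory chain, 1 translation factor and 1 mTOR pathway gene; in the 5 libraries they were 4, 0, 1 (Cct2) and 1 (Eif4ebp1), with Rictor lower (1). Leaving out 1 library with the covariate gave 0 to 48 members higher; those fits were added after seeing the data.

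Counts over all tested genes, 4 higher and 9 lower, became 301 and 335 with the covariate, 234 and 421 in the 5 libraries, 51 and 169 in DESeq2, 14 and 51 with the replicate block, 18 and 61 with no filter, 7 and 20 with DESeq2-type size factors, 8 and 19 with TMM without members and mitochondrial genes, 9 and 17 with limma on FPKM, and 0 and 0 scaled by the member sum. With no scaling factor 2 were higher. Single libraries left out gave 0 to 19 higher and 4 to 65 lower. The replicate block called 0 members. Deviations from the group means of same-numbered libraries correlated at 0.780, -0.382, 0.106 and 0.226 (numbers 1 to 4). Library differences such as counted gene length enter these values, so they cannot decide whether replicate numbers mark shared animals or batches.

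Without a scaling factor the median log2 fold change was 0.21 over all genes and 0.19 over members, and with limma on FPKM it was 0.17 over all genes and 0.21 over members. The mean share in DSS+CA was 3.20% on FPKM, against 2.42% on counts.

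Some log2 fold changes, none called, changed sign; the cause was not tested. With the covariate, Rpl13a was 0.79, Rpl26 0.40, Rpl4 0.53, Rplp1 0.45, Rplp2 0.10, Rps15 0.34, Rps15a 0.27, Rps18 0.32, Rps19 0.30, Rps27rt 0.61, Fau 0.49 and Gnb2l1 0.47. In the 5 libraries, Rpl4 was 0.17, Rplp1 0.28, Rplp2 0.48, Rps15 0.059, Rps15a 0.12, Rps18 0.030, Rps27rt 0.14, Fau 0.11 and Gnb2l1 0.32. On FPKM, Rpl4 was 0.15, Rplp1 0.10, Rplp2 0.23, Rps27rt 0.095, Fau 0.10 and Gnb2l1 0.16. With no scaling factor, Rpl4 was 0.084, Rplp2 0.28, Rps27rt 0.017, Fau 0.023 and Gnb2l1 0.050. Rplp2 was 0.22 scaled by the member sum, 0.064 with the replicate block and 0.036 with no filter. With DESeq2-type size factors and in DESeq2, Rpl37rt was -0.0040 in both, and Rps4l -0.020 in both.

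Leaving out single libraries, mostly DSS+CA 3 for the lowest and DSS 3 for the highest value, gave Rpl13a -1.41 to 0.45, Rpl22l1 -0.78 to 1.06, Rpl36al -0.019 to 0.47, Rpl37rt -0.19 to 0.28, Rpl4 -0.57 to 0.24, Rplp1 -0.59 to 0.12, Rplp2 -0.21 to 0.32, Rps15 -0.95 to 0.063, Rps18 -1.06 to 0.020, Rps27l -0.87 to 0.76, Rps27rt -0.89 to 0.42, Rps4l -0.12 to 0.28, Rpsa -0.0088 to 0.63, Fau -0.65 to 0.28 and Gnb2l1 -0.54 to 0.34. Depth limits 14 members with under 1000 counts over all libraries. Reads of the 11 among them with 10 to 1000 counts may be listed under copies.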
